A study of Mus musculus with 6 samples.

Results

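Txnip, which encodes thioredoxin-interacting protein, was described in embryonic submandibular glands (eSMGs) together with 9 genes of glucose handling and the thioredoxin system. The 10 genes were chosen by symbol: Txnip, its alpha-arrestin relatives Arrdc4 and Arrdc3, the glucose-sensing factor Mlxip, the glucose transporters Slc2a1 and Slc2a3, the hexokinases Hk1 and Hk2, and Txn1 and Txnrd1. They are 10 of 18307 genes with at least 1 count, and all 10 were among the 13610 genes that passed the filter on low counts. Txnip was taken because it was already known to be lower in AMD3100-treated eSMGs of these same libraries. Its difference between the groups, and those of the genes grouped around it, are therefore given as a description without a p-value.

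The eSMGs came from ICR mouse embryos at embryonic day 14 and were cultured for 6 h, as control or with AMD3100, an antagonist of the chemokine receptor CXCR4, at 50 µM. Up to 10 glands were pooled in each tube, with 3 tubes per group, and the labels name no genotype other than the strain. Each tube gave a 3′ mRNA library, in which reads come from the 3′ end of each transcript, with 9051595 to 14393031 counts per library. The study describes its experiments in general as independent repeats, but whether these tubes came from separate litters or days is not stated, so the spread between libraries may in part be technical. Levels are TMM-normalized CPM, which are counts scaled to a common library size (CPM) after correction for composition. They were not divided by transcript length, and a gene is called the most abundant of a list by its mean CPM in these 3′ libraries alone. A count of 3, taken as the limit of detection in a library, stood at 0.173 to 0.368 CPM on this scale, which covers counting error only.

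TXNIP binds reduced thioredoxin and blocks it, and as an alpha-arrestin it also helps to withdraw glucose transporters from the cell surface. Transcription of Txnip is known to follow glucose, through MondoA (encoded by Mlxip) or its relative ChREBP (Mlxipl), which pair with MLX and bind carbohydrate response elements once glucose 6-phosphate accumulates. Arrdc4 is a known target of the same factors, and hexokinases make the glucose 6-phosphate. Thioredoxin (Txn1) reduces disulfides in other proteins and is itself reduced by thioredoxin reductase (Txnrd1).

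Before the levels, the libraries were compared with each other. Both replicate 3 libraries stood apart from the other 4. Across genes, which are not independent replicates, their log2 CPM had a Pearson correlation of 0.954, against 0.812 to 0.902 for the other control and AMD3100 pairings. Epithelial markers were at a summed 2283, 2281 and 1519 CPM in control and 2743, 2408 and 3498 CPM in AMD3100-treated eSMGs, and 12 of 12 were detected, Krt15 being the most abundant. Their sum was thus higher in every AMD3100 library than in every control library. Of the 12 epithelial markers, 8 were higher and 4 lower in AMD3100-treated eSMGs, and 0 were called. The 12 mesenchymal markers, led by Col3a1, summed to 4627, 4568 and 2343 CPM in control and 4612, 4556 and 1993 CPM in AMD3100-treated eSMGs. The sum of these 12 markers was thus lower in both replicate 3 libraries than in the others. Skeletal muscle markers, led by Myog, reached 1033 and 1340.4 CPM in control and AMD3100 replicate 3, and 85.5 to 151 CPM in the other libraries. The 7 macrophage markers, led by C1qa, were also highest in replicate 3, at 232 and 182 CPM against 75.8 to 97.1 CPM elsewhere. Erythroid markers, led by Hba-a1, ranged from 6976 to 19283 CPM, those of nerve and glia, led by Tubb3, from 352 to 701 CPM, and those of endothelium, led by Kdr, from 16.6 to 45 CPM. None of the markers was at 0 in all libraries, and Fabp7, of the nerve and glia list, was the 1 marker called between the groups. In these bulk samples, fewer cells of a type and less RNA per cell cannot be told apart, and the part of cell composition in the levels given here was not tested.

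Txnip was at 83.5, 85.9 and 116 CPM in control replicates 1, 2 and 3. In AMD3100-treated eSMGs it was at 24.1, 34.2 and 36.1 CPM. Every AMD3100 library was below every control library, with a wide gap between the lowest control and the highest treated library. The means were 95.1 ± 18.1 and 31.5 ± 6.46 CPM (SD, n = 3), so that Txnip was 3.02-fold lower in AMD3100-treated eSMGs. More than 3-fold lower means were found for 1.8% of all genes tested. The log2 ratio of AMD3100 to control (the log2 fold change in the plots), as fitted by edgeR, was -1.60 ± 0.30 (SE). Control replicates of Txnip varied with a coefficient of variation of 19.0% and treated replicates with 20.5%. Among 3359 genes within 2-fold of the mean level of Txnip, the median was 28.4% in control and 27.5% in AMD3100-treated eSMGs. Txnip thus varied less than the median gene of its level within each group. As it was chosen by its contrast in these libraries, which favours a small spread within groups, this is a description only. With replicates 1 and 2 only, without both libraries that stood apart, the log2 ratio was -1.55 ± 0.25 (SE).

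**Figure D1:**
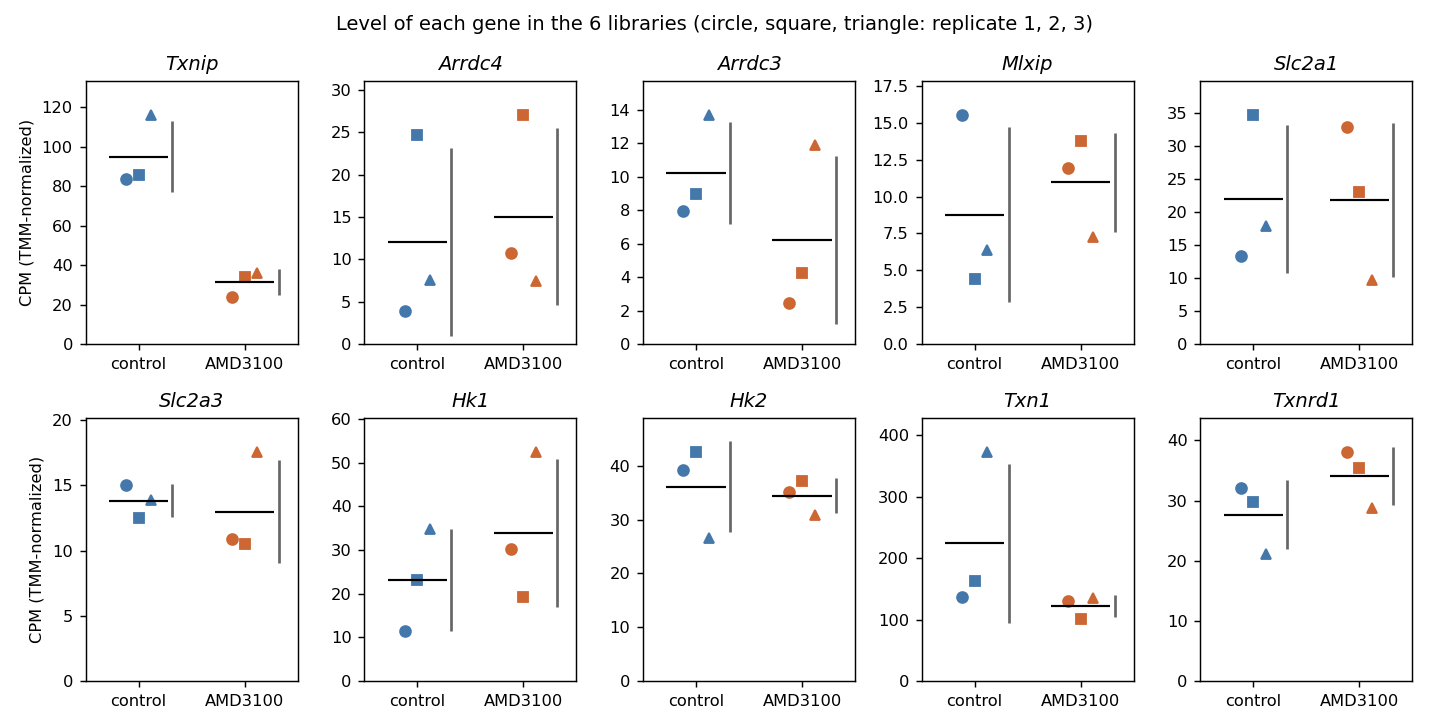
TMM-normalized CPM (vertical axes, each from 0) of the 10 genes in the 3 control (blue) and 3 AMD3100 (orange) libraries, with circle, square and triangle for replicates 1, 2 and 3, a black line for the mean and a grey bar for the SD on either side of it. The groups are apart for Txnip, from 83.5 to 116 against 24.1 to 36.1, and barely apart for Txn1.

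The Txnip gene lies on chromosome 3 from 96557957 to 96561857 (RefSeq, GRCm38). It lies whole within Gm15441, a long non-coding RNA gene of chromosome 3 from 96555768 to 96566801 that GENCODE vM1 places on the opposite strand, over the 3′ end of Txnip. Gm15441 was counted separately, with 0, 49 and 0 counts in control and 0, 43 and 9 counts in AMD3100-treated libraries. These are few beside the 954, 1179 and 1163 counts of Txnip in control and 418, 371 and 294 counts in AMD3100-treated libraries. Whether counting used strand is not given in the sources used here, so that reads of both genes cannot be fully told apart. None of the simulated 50 bp reads from the last 300 bases of Txnip matched another place of the genome.

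The 250 bases before the start of Txnip and of Arrdc4 are shown because both genes are known targets of MondoA and ChREBP. In both, capitals mark the hexamer CACGNG, which occurs as a repeat in carbohydrate response elements, and the CCAAT box, each on either strand. The Txnip sequence is chr3:96557707-96557956 on the plus strand and that of Arrdc4 is chr7:68749239-68749488 on the minus strand, both from RefSeq on GRCm38.p6 and written 5′ to 3′.
Txnip: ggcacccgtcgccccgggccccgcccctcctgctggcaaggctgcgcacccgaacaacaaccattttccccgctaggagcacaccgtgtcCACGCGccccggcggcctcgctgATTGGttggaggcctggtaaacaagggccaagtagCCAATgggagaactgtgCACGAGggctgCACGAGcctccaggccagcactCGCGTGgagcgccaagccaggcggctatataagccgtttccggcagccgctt
Arrdc4: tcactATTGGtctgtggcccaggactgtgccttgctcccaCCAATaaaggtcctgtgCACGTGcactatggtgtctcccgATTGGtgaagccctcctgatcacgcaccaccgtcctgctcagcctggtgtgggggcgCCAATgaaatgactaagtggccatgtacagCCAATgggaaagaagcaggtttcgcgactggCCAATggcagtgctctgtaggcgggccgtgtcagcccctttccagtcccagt
The window of Txnip held 4 matches of CACGNG, of which 2 lay 5 bases apart, from 85 to 69 bases before the start. This pair, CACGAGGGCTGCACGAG, has the layout of a carbohydrate response element. Arrdc4 held 1 CACGNG, from 193 to 188 bases before the start, and no such pair. It held 6 CCAAT boxes and Txnip held 2. Of all 32851 windows of this length in the RefSeq table, 23.5% held CACGNG, 33.8% held CCAAT and 0.0731% held a pair of CACGNG hexamers 5 bases apart. CACGNG reads CNCGTG on the other strand, and its matches may overlap. Promoter windows were matched for 9 of the 10 genes, all but Slc2a3, and Txnip was the 1 with the pair. A match describes the letters and not binding, and elements further from the start or with other letters were not searched. Whether these sequences bear on the levels of either gene was not tested.

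The pair of hexamers was found before 23 genes, 13 of which were tested here. Apart from Txnip, 3 of the 12 others were higher and 9 lower in AMD3100-treated eSMGs, while 47.8% of all genes tested were lower. Their log2 ratios ran from -0.70 ± 1.39 (SE, Fam124a) to 0.90 ± 1.42 (SE, Drd1). The median was -0.18, against 0.02 over all genes tested. With 12 genes and errors of this size, nothing is read from the split. None of the 12 was called by the thresholds of the study, a fold change over 1.5 and an unadjusted p-value under 0.05 in edgeR's test, by which 1.68% of all genes tested were called. Among them was Pklr too, the liver-type pyruvate kinase gene and a textbook target of ChREBP, but with 0, 9 and 6 counts in control against 20, 0 and 8 with AMD3100 it was below the filter.

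Arrdc4, whose product is the alpha-arrestin closest in regulation to TXNIP, is on chromosome 7 from 68736994 to 68749238. Its level was 3.94, 24.7 and 7.58 CPM in control and 10.7, 27.0 and 7.49 CPM in AMD3100-treated eSMGs. Replicate 2 was the highest library in both groups, and the groups overlapped fully. The highest control library was 6.27 times the lowest, against 1.39 times for Txnip. The log2 ratio of Arrdc4 was 0.32 ± 0.73 (SE), on the other side of zero from that of Txnip. It was 1.38 without control replicate 2 and -0.40 without AMD3100 replicate 2, so that its direction rested on single libraries. In counts of the same library, which need no scaling, the ratio of Txnip to Arrdc4 was 21.2, 3.48 and 15.3 in control and 2.25, 1.27 and 4.82 in AMD3100-treated eSMGs. This ratio was lower in AMD3100 in every same-numbered pair, although control replicate 2 was below AMD3100 replicate 3.

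Arrdc3, an alpha-arrestin known to bind beta-adrenergic receptors, is on chromosome 13 from 80883384 to 80896042. It stood at 7.97, 8.96 and 13.7 CPM in control and at 2.48, 4.24 and 11.9 CPM in AMD3100-treated eSMGs. AMD3100 replicates 1 and 2 were below all control libraries, whereas replicate 3 was within their range. The log2 ratio was -0.72 ± 0.64 (SE). It was -0.34 without AMD3100 replicate 1, -0.44 without control replicate 3 and -1.62 without AMD3100 replicate 3. Like control replicate 3, that library had high skeletal muscle markers, and their part in the level of Arrdc3 was not tested.

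Mlxip, which encodes MondoA, is on chromosome 5 from 123394521 to 123457932. It was at 15.5, 4.44 and 6.38 CPM in control and 11.9, 13.7 and 7.25 CPM in AMD3100-treated eSMGs, which is a log2 ratio of 0.32 ± 0.56 (SE). The highest library was a control and the groups overlapped. The ratio of Mlxip was 0.01 without control replicate 2 and 1.01 without control replicate 1, so that its size rested on single libraries. It was also over 1.5 times smaller without control replicate 3 (0.14) or AMD3100 replicate 2 (0.14), and larger without AMD3100 replicate 3 (0.54). Mlx, the partner that MondoA and ChREBP share, was at 31.6, 28.3 and 13.6 CPM in control and 15.3, 37.3 and 8.23 CPM in AMD3100-treated eSMGs, with a log2 ratio of -0.27 ± 0.57 (SE). Mlxipl, which encodes ChREBP, had 0, 0 and 3 counts in control and 13, 0 and 2 counts in AMD3100-treated libraries and was too low to be tested. Thus, of the factors known to act on the Txnip promoter, Mlxip and Mlx were detected in every library and Mlxipl reached 3 counts in 2 of the 6.

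Slc2a1 encodes GLUT1, the glucose transporter found in most tissues, and lies on chromosome 4 from 119108745 to 119137330. It was at 13.4, 34.6 and 17.9 CPM in control and 32.8, 23.0 and 9.70 CPM in AMD3100-treated eSMGs. The group means were nearly the same, 21.9 ± 11.2 and 21.8 ± 11.6 CPM (SD, n = 3), and the log2 ratio was -0.01 ± 0.52 (SE). It changed sign with the library left out, from -0.43 without AMD3100 replicate 1 to 0.48 without control replicate 2. GENCODE vM1 has a gene on the opposite strand, Gm12868, over its 3′ end. Slc2a3, which encodes the high-affinity transporter GLUT3, is on chromosome 6 from 122727809 to 122802363. Its levels were 15.1, 12.5 and 13.9 CPM in control and 10.9, 10.5 and 17.6 CPM in AMD3100-treated eSMGs, which is a log2 ratio of -0.09 ± 0.38 (SE). For both transporters the groups overlapped.

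Hk1 and Hk2 encode the hexokinases of most tissues, which trap glucose as glucose 6-phosphate. Hk1, on chromosome 10 from 62268855 to 62379920, was at 11.5, 23.2 and 34.8 CPM in control and 30.2, 19.2 and 52.4 CPM in AMD3100-treated eSMGs. The highest library of each group was replicate 3, and the log2 ratio was 0.55 ± 0.50 (SE). It was 0.08 without AMD3100 replicate 3, 0.22 without control replicate 1 and 0.97 without control replicate 3. Hk2, on chromosome 6 from 82725025 to 82774454, was at 39.2, 42.5 and 26.5 CPM in control and 35.2, 37.1 and 30.8 CPM in AMD3100-treated eSMGs, with replicate 3 the lowest in both groups. Its log2 ratio was -0.07 ± 0.30 (SE). Accordingly, both hexokinase genes differed more between replicates than between the groups.

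Txn1 encodes cytosolic thioredoxin, the protein that TXNIP binds, and is on chromosome 4 from 57943373 to 57956411. It was at 136, 163 and 373 CPM in control and 130.2, 101 and 135 CPM in AMD3100-treated eSMGs. Each AMD3100 library was below each control library, but control replicate 1 and AMD3100 replicate 3 were almost level, and control replicate 3 was far above all others. The means were 224 ± 129 and 122 ± 18.4 CPM (SD, n = 3), which is a log2 ratio of -0.88 ± 0.41 (SE). It was -0.29 without control replicate 3, and -0.38 with replicates 1 and 2 only. Most of the difference of Txn1 therefore came with control replicate 3, a library of high skeletal muscle and macrophage markers. AMD3100 replicate 3 also had high markers of both, with Txn1 at 135 CPM. The part of these cells in the level of Txn1 was not tested. Txnrd1, which encodes the reductase that keeps thioredoxin reduced, is on chromosome 10 from 82833951 to 82897724, and was at 32.0, 29.7 and 21.1 CPM in control and 38.1, 35.4 and 28.7 CPM in AMD3100-treated eSMGs. The groups overlapped, as AMD3100 replicate 3 was below control replicates 1 and 2. The means of Txnrd1 were 27.6 ± 5.74 and 34.1 ± 4.81 CPM (SD, n = 3), which is a log2 ratio of 0.30 ± 0.31 (SE), and of 0.15 without control replicate 3.

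As control and AMD3100 libraries share replicate numbers, each gene was also compared within same-numbered libraries. For replicates 1 and 2 this pairing rests on the labels alone. Txnip was lower in AMD3100 in every pair, by -1.79, -1.32 and -1.68 on the log2 CPM scale. Arrdc3, with differences of -1.62, -1.05 and -0.20, and Txn1, with -0.06, -0.69 and -1.47, were lower in every pair as well, but by unequal amounts. Txnrd1 was higher in every pair, by 0.25, 0.25 and 0.44. The pairs of the remaining 6 genes did not go the same way. Of all genes tested, 14.6% were lower and 15.7% were higher in AMD3100 in every pair, so that a shared sign alone is common in these libraries.

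**Figure D2:**
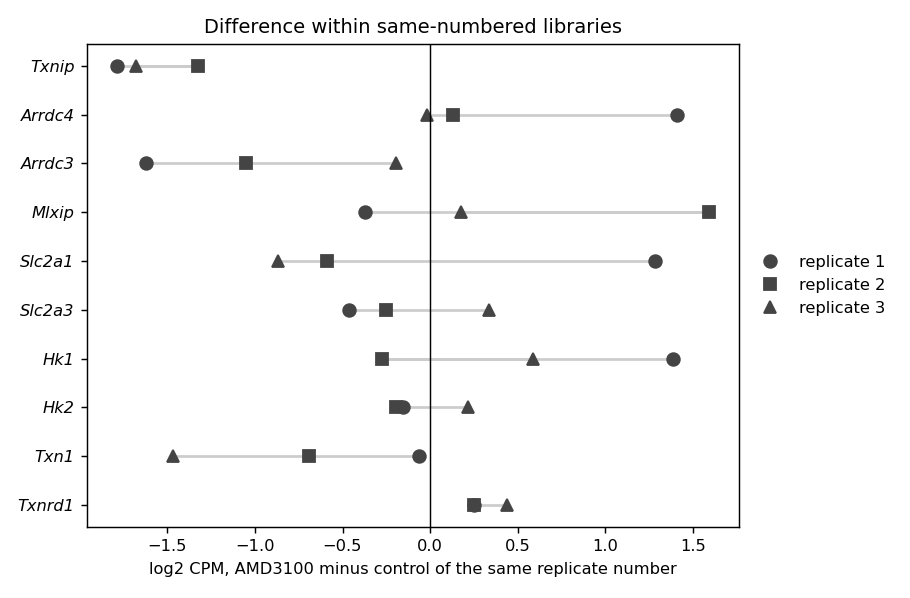
Difference of log2 CPM between AMD3100 and control libraries of the same replicate number (horizontal axis) for the 10 genes, with circle, square and triangle for replicates 1, 2 and 3. The 3 points of Txnip lie close together between -1.79 and -1.32, while those of Arrdc4, Mlxip, Slc2a1 and Hk1 spread over both sides of 0.

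In edgeR's quasi-likelihood test, Txnip was the 1 of the 10 genes that passed both thresholds of the study, against 1.68% of the 13610 genes tested in either direction and 1.28% called lower. With replicate number as a block in the model, 2 of the 10 passed, Txnip and Txn1, against 4.39% of all genes. The groups did not overlap for these same 2 genes, against 7.44% of all genes in either direction and 4.17% lower. Because the genes were chosen with this contrast known, nothing is read from these counts. Of the 9 partners of Txnip, 0 had an unadjusted p-value under 0.05 in edgeR's test with all 6 libraries, the filter and no block. By DESeq2 Txn1 was the 1 that passed both thresholds, against 2.62% of all genes. In edgeR, Txn1 also passed them without the filter on low counts (300 of 18307 genes called) and without control replicate 1 (195 of 14241). Arrdc3 passed them without AMD3100 replicate 3 (451 of 14260). The median log2 ratio of the partners was -0.01, against 0.02 over all genes tested. Standard errors of the partners were 0.30 to 0.73 on the log2 scale, against 0.30 for Txnip.

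**Figure D3:**
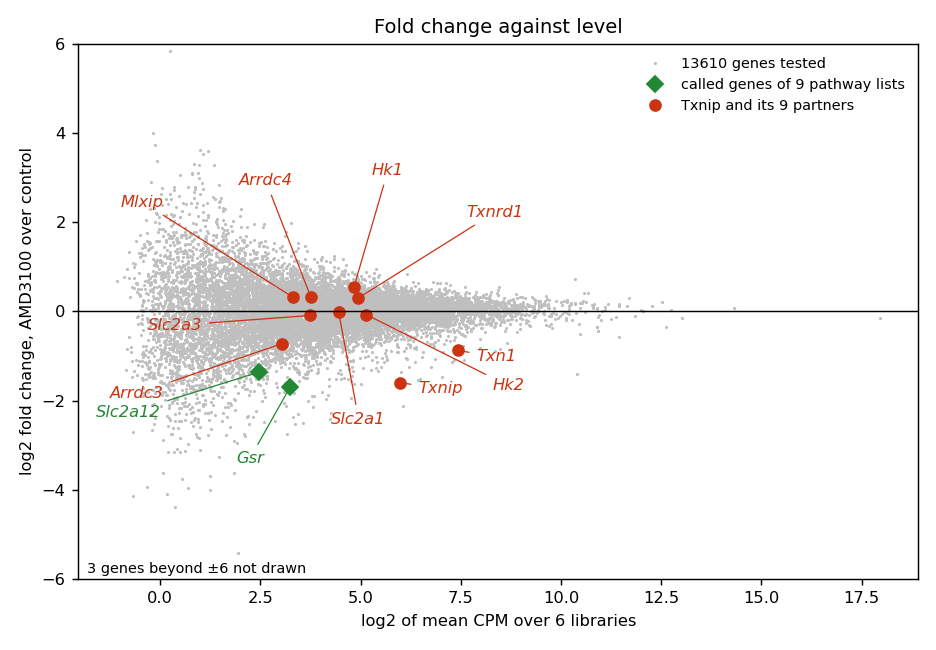
Log2 ratio of AMD3100-treated over control eSMGs (vertical axis) against log2 of the mean CPM over 6 libraries (horizontal axis) for the 13610 genes tested (grey, 3 genes beyond the axis not drawn), Txnip and its 9 partners (red) and the called genes of 9 pathway lists (green). Txnip, at -1.60, lies below almost all genes of its level, and the partners lie between -0.88 and 0.55.

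Over the 6 libraries, the genes with a pattern most like that of Txnip were sought among 6065 others with a mean of at least 20 CPM, by the Pearson correlation of log2 CPM. They were Smim14 (r = 0.969), Usp42 (0.962), Rbm17 (0.961), Rbm34 (0.960) and Idh1 (0.959). USP42 removes ubiquitin from proteins, RBM17 takes part in splicing, RBM34 binds RNA, and IDH1 makes NADPH in the cytosol. Smim14 was at 85.2, 83.7 and 108 CPM in control and 35.9, 31.8 and 39.3 CPM in AMD3100-treated eSMGs, levels that followed those of Txnip most closely. Idh1 was at 158, 166 and 192 CPM in control and 109, 110.2 and 136 CPM in AMD3100-treated eSMGs, which is a log2 ratio of -0.54 ± 0.27 (SE). These genes share all 6 libraries with Txnip, and in each of them all AMD3100 libraries were below the lowest control. That follows largely from choosing them by their likeness to Txnip, and it was so for 4.17% of all genes tested. With 6 libraries, 36 genes (0.594%) reached a correlation of 0.9. Of the partners, Arrdc3 (0.739) and Txn1 (0.719) had the highest correlations with Txnip and Txnrd1 (-0.756) the lowest, whereas that of Arrdc4 was -0.248.

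Then, 10 lists of neighbouring genes, none of them among the 10 described above, were examined in the same fit. Of 123 genes listed, 109 were tested, of which 59 were higher and 50 lower in AMD3100-treated eSMGs, with a median log2 ratio of 0.05. 3 were called lower, among them Slc2a12 and Gsr, and 0 were called higher, against 1.28% and 0.397% of all genes tested. By edgeR's test 0 of the 109 had an adjusted p-value under 0.05, as had 0 of all 13610 genes, where 228 had an unadjusted p-value under 0.05. An adjusted p-value under 0.05 was found for 0.022% of all genes with the replicate block and for 0.0274% by DESeq2. With the replicate block, 4 were called higher and 3 lower, against 1.49% and 2.90% of all genes. The groups did not overlap for 5 of the 109 that were higher and 5 that were lower. This was so for 3.28% and 4.17% of all genes tested.

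**Figure D4:**
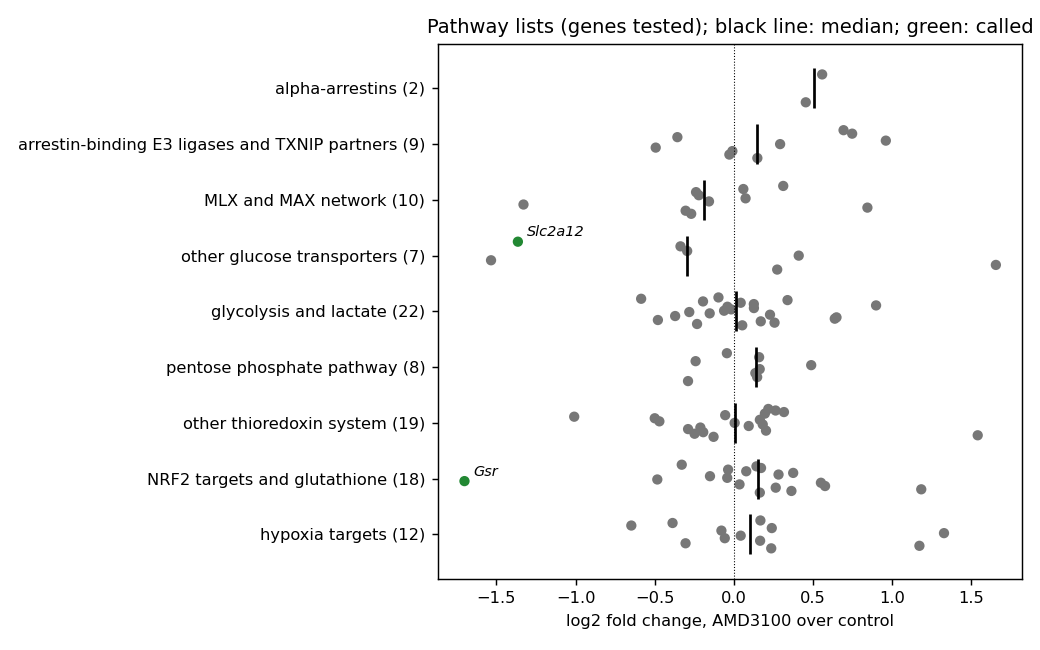
Log2 ratio of AMD3100-treated over control eSMGs (horizontal axis) of each tested gene of 9 of the lists, with the number tested in brackets, the median of each list as a black line and called genes in green. The medians lie between -0.30 and 0.51, and Slc2a12 and Gsr are the called genes, at -1.36 and -1.70.

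Slc2a12, which encodes the transporter GLUT12, fell from 7.93 ± 1.68 to 3.08 ± 0.534 CPM (SD, n = 3), from 92, 131 and 62 counts in control to 50, 29 and 30 with AMD3100. Its log2 ratio was -1.36 ± 0.56 (SE, edgeR unadjusted p = 0.0387, adjusted p = 1.0). The call did not hold with the block (edgeR unadjusted p = 0.0552), without the filter on low counts (unadjusted p = 0.0699) or with replicates 1 and 2 only (unadjusted p = 0.0622). Nor did it hold without any 1 of the 6 libraries, when p ranged from 0.0539 to 0.125. GENCODE vM1 has genes on the opposite strand over the 3′ ends of Slc2a12 (Tbpl1), Prkaa1 (Gm15938), Gss (Acss2), Mlx (Psmc3ip), Mxd3 (Prelid1) and Hif1a (Gm15283) as well, whose reads may be mixed with theirs. Of the other 10 transporters in the list, 6 were tested, 3 of them higher and 3 lower, and 0 were called. Adpgk, a kinase that uses ADP to phosphorylate glucose, was at 4.20, 7.43 and 5.39 CPM in control and 3.69, 2.03 and 2.46 CPM in AMD3100-treated eSMGs. Its groups did not overlap, as was so in this direction for 4.17% of all genes tested, but it did not pass the test. Slc2a4, the insulin-responsive GLUT4, had a log2 ratio of 0.27 ± 0.50 (SE), and Slc2a10 of -0.34 ± 0.60 (SE).

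Further along glucose use, 22 of 23 genes of glycolysis and lactate were tested, and 11 were higher and 11 lower, with a median log2 ratio of 0.01 and 0 called. Pkm, the pyruvate kinase of most tissues, was at 388, 425 and 188 CPM in control and 413, 447 and 173 CPM in AMD3100-treated eSMGs, which is a log2 ratio of 0.04 ± 0.44 (SE). Aldoa, an aldolase, had one of 0.23 ± 0.29 (SE). In both, the spread between replicates was larger than the difference between the groups. Simulated reads of Gapdh, Pgk1 and Pgam1 all had a further match elsewhere in the genome, so that their counts are uncertain. The 8 genes of the pentose phosphate pathway, which makes NADPH, had a median log2 ratio of 0.14, 5 higher and 3 lower, with 0 called. Their most abundant members were Pgls (0.14 ± 0.41, SE) and Pgd (0.16 ± 0.63, SE). For 12 hypoxia targets tested the median was 0.10, with 7 higher, 5 lower and 0 called, and the most abundant were Higd1a (0.17 ± 0.46, SE) and Hif1a (0.24 ± 0.34, SE). P4ha1, a collagen prolyl hydroxylase, had a log2 ratio of -0.65 ± 0.44 (SE, edgeR unadjusted p = 0.172), and of -0.63 with the block (unadjusted p = 0.0438). Without control replicate 3 the ratio of P4ha1 was -0.24, without AMD3100 replicate 2 it was -0.41 and without AMD3100 replicate 3 it was -1.02, and it was called in 0 of 6 fits with a library left out.

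Redox genes beside Txn1 and Txnrd1 gave a single call. In the list of other thioredoxin system genes, 19 of 20 were tested, with 10 higher, 9 lower, a median log2 ratio of 0.00 and 0 called. Txnrd2, the mitochondrial thioredoxin reductase, was at 1.05, 1.82 and 2.99 CPM in control and 4.84, 5.25 and 7.0 CPM in AMD3100-treated eSMGs. Its groups did not overlap, as was so in this direction for 3.28% of all genes tested. Txnrd2 did not pass the test, with a log2 ratio of 1.54 ± 0.74 (SE, edgeR unadjusted p = 0.0690) and of 1.64 with the block (unadjusted p = 0.0758). Prdx1 and Prdx2, peroxiredoxins that thioredoxin reduces, had log2 ratios of -0.19 ± 0.56 (SE) and 0.20 ± 0.31 (SE). Among 18 NRF2 targets and glutathione genes, 12 were higher and 6 lower, with a median of 0.15. Gsr, which encodes glutathione reductase, fell from 8.93, 11.1 and 23.4 CPM in control to 5.36, 1.47 and 6.51 CPM in AMD3100-treated eSMGs, which is a log2 ratio of -1.70 ± 0.65 (SE, edgeR unadjusted p = 0.0283, adjusted p = 1.0). The groups of Gsr did not overlap, as was so in this direction for 4.17% of all genes tested. Its unadjusted edgeR p-value with the block was 0.00717. It was not called without control replicate 3 (unadjusted p = 0.148), without AMD3100 replicate 2 (unadjusted p = 0.0590) or with replicates 1 and 2 only (unadjusted p = 0.0827), all by edgeR. Nqo1, a quinone reductase, and Gss, glutathione synthetase, were not called with all 6 libraries unless the block was in the model. For Nqo1 the log2 ratio was 1.18 ± 0.86 (SE, edgeR unadjusted p = 0.200), and 1.84 with the block (unadjusted p = 0.0408). It was 0.70 without control replicate 2, and Nqo1 was called without control replicate 3, at 2.76, and with replicates 1 and 2 only, at 2.65. For Gss it was 0.55 ± 0.70 (SE, edgeR unadjusted p = 0.454), and 0.83 with the block (unadjusted p = 0.0326). The ratio of Gss was 1.67 without control replicate 3, where it was called, 0.12 without control replicate 1, 0.29 without control replicate 2 and -0.06 without AMD3100 replicate 3, so that its direction rested on single libraries. Sod1 and Fth1, the most abundant of this list, had log2 ratios of 0.14 ± 0.48 (SE) and -0.04 ± 0.39 (SE).

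Lists of proteins that act on or with TXNIP showed no call without the block. Of 9 tested ligases and partners, 5 were higher and 4 lower, and the median log2 ratio was 0.15. The most abundant, Nedd4, a ubiquitin ligase that arrestins recruit, and Ddit4, a stress-induced inhibitor of mTORC1, had log2 ratios of -0.03 ± 0.39 (SE) and -0.36 ± 0.33 (SE). Map3k5 encodes ASK1, a kinase that thioredoxin holds inactive. It was at 2.89, 8.60 and 9.87 CPM in control and 11.3, 16.2 and 14.0 CPM in AMD3100-treated eSMGs. Prkaa1 encodes a catalytic subunit of AMPK, which marks TXNIP for degradation, and was at 15.4, 14.0 and 9.07 CPM in control and 22.9, 23.2 and 18.4 CPM in AMD3100-treated eSMGs. For both, the lowest AMD3100 library was higher than the highest control library, as was so for 3.28% of all genes tested. Map3k5 had a log2 ratio of 0.96 ± 0.52 (SE, edgeR unadjusted p = 0.0998) and of 1.11 with the block (unadjusted p = 0.0306). For Prkaa1 it was 0.75 ± 0.36 (SE, edgeR unadjusted p = 0.0682) and 0.77 with the block (unadjusted p = 0.0265). With 1 library left out, Map3k5 lay between 0.58 (without control replicate 1) and 1.27, Prkaa1 between 0.56 and 0.89, and neither was called in any of these fits. Map3k5, Prkaa1, Txnrd2, Nqo1, Gss and P4ha1 were named after their values were seen. The other tested alpha-arrestins, Arrdc1 and Arrdc2, had log2 ratios of 0.45 ± 0.45 (SE) and 0.56 ± 1.19 (SE), and Arrdc5 had 0 counts in every library. In the MLX and MAX network, 4 of 10 tested genes were higher and 6 lower, with 0 called, and the most abundant, Mxd3 and Mga, had log2 ratios of 0.07 ± 0.30 (SE) and 0.31 ± 0.30 (SE).

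**Figure D5:**
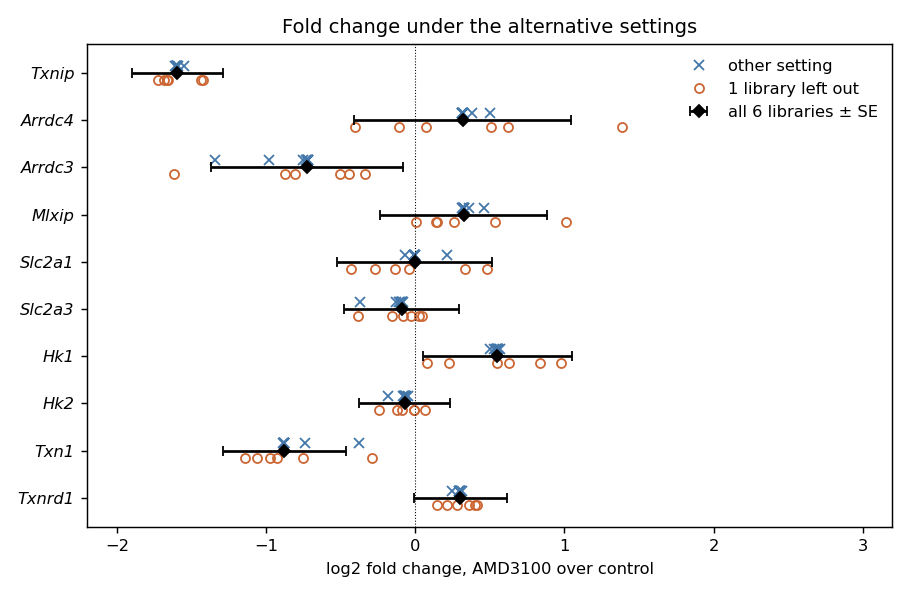
Log2 ratio of AMD3100-treated over control eSMGs (horizontal axis) of the 10 genes with all 6 libraries (black, with the standard error on either side), with 1 library left out (open circles) and under the other settings (crosses). Txnip stays between -1.72 and -1.42, while Arrdc4 and Slc2a1 change sign when single libraries are left out.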

How the data were processed

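Counts of 3 control and 3 AMD3100 libraries of eSMGs were used, with groups and replicate numbers taken from the sample titles. The authors deposited raw counts by gene symbol, from 50 bp single reads. The submitters' processing notes name Bowtie2, edgeR and the build mm10, without versions, and the annotation is not given in the sources used here. Of 23282 lines, 22 that repeated a symbol with the same counts were left out.

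Counts were compared with edgeR 4.0.16 in R 4.3.3 (TMM, filterByExpr, glmQLFit, glmQLFTest, condition as the only term) with Benjamini-Hochberg adjustment over 13610 genes. The paper's methods name quantile normalization and an equal-variance test, which were not used here, as a count test fits the deposited unit. The thresholds, a fold change over 1.5 and an unadjusted p-value under 0.05, are those in the main text of the study, while a legend in it gives a larger fold. Alternatives were DESeq2 1.42.0, other normalizations and filters, replicate number as a block, robust estimation, Rn45s (the ribosomal RNA precursor, 16.2% to 32.5% of the counts) left out, and libraries left out. The fits were tested on simulated data. Same-numbered libraries had correlations of 0.185, 0.171 and 0.584 between their deviations from the group means. Only the replicate 3 pair was set apart, as control 2 with AMD3100 1 had 0.198 and control 1 with AMD3100 2 had 0.146. The pairing of replicates 1 and 2 therefore rests on the labels alone. This limits the fits with the replicate block and the differences within pairs.

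The genes and lists were chosen with earlier results of these data known. The genes named in the text were the 10 members, from each list its called genes and its 2 most abundant, Mlx and Mlxipl, and the 5 genes most correlated with Txnip. Others are said to be named after their values were seen. A called gene of the lists is not reported here. Positions and promoters are those of RefSeq on GRCm38, which is mm10. Opposite-strand genes were taken from GENCODE vM1. Simulated reads from 3′ ends were aligned to NCBIM37, an older build, with minimap2 2.31-r1302, and reads with a second place of nearly equal score were called shared.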

Additional observations from a re-analysis of the deposited data

How the results depend on the processing

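The log2 fold change of Txnip lay between -1.72 and -1.42 over the 15 alternatives, the lowest without AMD3100 replicate 3 and the highest without control replicate 3. Those of Arrdc3, Mlxip, Hk1, Txn1 and Txnrd1 kept their sign over all alternatives but not their size, Mlxip lying between 0.01 and 1.01, Hk1 between 0.08 and 0.97 and Arrdc3 between -1.62 and -0.34, whereas Arrdc4 changed sign in 2, Slc2a1 in 3, Slc2a3 (-0.38 to 0.05) in 2 and Hk2 (-0.24 to 0.07) in 1 of them. The number of genes called, 228 with all libraries, was 479 with DESeq2, 598 with the replicate block and 613 with replicates 1 and 2 only, and between 163 and 547 with 1 library left out. Without control replicate 3, 57.8% of the calls were higher in AMD3100, against 23.7% with all libraries. The number of pathway genes called, 3, was 5 with DESeq2, 7 with the replicate block and between 1 and 4 with 1 library left out. RLE or upper quartile scaling, testing without a filter, a minimum of 10 counts per library, robust estimation and the removal of Rn45s left both counts within 1.5 times. Of the pathway genes called, 0 were higher and 3 lower with all libraries, 2 and 2 with the minimum of 10 counts, 3 and 1 without control replicate 3, 1 and 1 with replicates 1 and 2 only, 1 and 4 with DESeq2 and 4 and 3 with the replicate block. Genes that had an adjusted p-value under 0.05 numbered 0 in edgeR, 3 with the block and 5 with DESeq2. The cause of these differences was not tested. With 3 libraries per group and a biological coefficient of variation of 0.579, small differences could not be resolved.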

Other observations

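Several abundant redox genes differed between replicates more than between the groups, and both replicate 3 libraries were the high ones. Prdx1 was at 701, 710 and 2178 CPM in control and 697, 639 and 1802 CPM in AMD3100-treated eSMGs. Pgd, an NADPH-producing enzyme of the pentose phosphate pathway, was at 107, 138 and 424 CPM in control and 144, 140.4 and 464 CPM in AMD3100-treated eSMGs. Sod1, the cytosolic superoxide dismutase, was at 501, 526 and 1302 CPM in control and 591, 643 and 1337 CPM in AMD3100-treated eSMGs. Txn1 was high in control replicate 3 but not in AMD3100 replicate 3, unlike these genes. Eno3, the enolase of muscle, which was named after its values were seen, was at 27.3 and 31.7 CPM in control and AMD3100 replicate 3 and at 0.876 to 2.99 CPM in the other libraries, along with the skeletal muscle markers. Txnip was also highest in replicate 3 within each group, at 116 and 36.1 CPM, and control replicate 3 was 1.39 times the lowest control.

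The ratio of Txn1 to Txnip counts within a library was 1.63, 1.90 and 3.21 in control and 5.41, 2.95 and 3.73 in AMD3100-treated eSMGs. AMD3100 replicate 2 was below control replicate 3. The ratio of Txnip to Txnrd1 was 2.61, 2.89 and 5.49 in control and 0.632, 0.966 and 1.26 in AMD3100-treated eSMGs, without overlap. As Txnip chose these ratios, they are descriptions.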
